A study of Mus musculus with 60 samples.

Results

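The first cleavage of mouse embryos made by cumulus cell nuclear transfer (NTC embryos) was examined by comparing single 2-cell embryos with single 1-cell (pronuclear) embryos. The members are the 6 libraries that the labels give as NTC 1-cell (n = 3) and NTC 2-cell (n = 3), of 60 libraries in all, and the comparison ran across every gene of the expression table. For NTC embryos, oocytes of adult BDF1 females (C57BL/6 × DBA2 F1) were enucleated and injected with a cumulus cell nucleus from BDF1 females. They were then activated with strontium chloride in the presence of cytochalasin B and Scriptaid, a histone deacetylase inhibitor, and cultured in G1 medium. NTM embryos were reconstructed and activated in the same way with nuclei of mouse embryonic fibroblasts (MEFs) from BDF1 fetuses. The MEFs had been cultured, passaged and held in low serum, whereas the cumulus cells were collected with the oocytes and stored cold until use. Donor cell type and donor cell treatment therefore cannot be told apart. The in vivo embryos came from C57BL/6 females mated with DBA2 males, so their oocytes differed from those of the NT embryos in genotype as well as in activation and culture. Embryos were picked by their morphology and the hour within the 2-cell stage is not given. The labels give them as separate single embryos, and the p-values below measure the spread between such embryos.

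At fertilization the mouse genome is silent and the embryo lives on RNA and protein stored in the oocyte. Around the first cleavage the stored messages are deadenylated and degraded, and transcription from the embryo's own genome begins in the process called zygotic genome activation (ZGA). The transcription factor Dux and retroviral MERVL elements drive a burst of 2-cell genes such as the Zscan4 family and Zfp352, while Obox and Nr5a2 proteins act on a wider set of early genes. In an NTC embryo the genome comes from a somatic cell of the ovary, so this program has to start from chromatin that had been set for a cumulus cell.

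The DNA in front of the 2-cell genes on which the results below turn is shown first. The sequences are the 250 bases upstream of the RefSeq transcription start in mouse build GRCm38.p6, written 5′ to 3′ on the strand of the gene. Zfp352 lies on chromosome 4 (gene at chr4:90218820-90225702), and its window is chr4:90218570-90218819 on the plus strand. In it, capitals mark TAATCC, the other strand of GGATTA, the short site of paired-like homeodomain factors. For Zscan4c the window is chr7:11005495-11005744 on the plus strand, and for Zscan4d it is chr7:11166149-11166398 on the minus strand. In these promoters capitals mark the match to the Dux motif, which is read from the other strand.
Zfp352: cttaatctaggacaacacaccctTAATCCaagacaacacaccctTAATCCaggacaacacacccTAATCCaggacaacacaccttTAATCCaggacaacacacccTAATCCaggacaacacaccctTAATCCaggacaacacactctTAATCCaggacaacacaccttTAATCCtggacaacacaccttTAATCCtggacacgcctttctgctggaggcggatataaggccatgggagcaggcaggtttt
Zscan4c: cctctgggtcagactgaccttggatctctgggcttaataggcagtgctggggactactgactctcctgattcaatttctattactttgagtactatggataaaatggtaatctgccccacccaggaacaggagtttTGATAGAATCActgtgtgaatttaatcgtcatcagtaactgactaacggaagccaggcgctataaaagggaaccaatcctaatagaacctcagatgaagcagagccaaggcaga
Zscan4d: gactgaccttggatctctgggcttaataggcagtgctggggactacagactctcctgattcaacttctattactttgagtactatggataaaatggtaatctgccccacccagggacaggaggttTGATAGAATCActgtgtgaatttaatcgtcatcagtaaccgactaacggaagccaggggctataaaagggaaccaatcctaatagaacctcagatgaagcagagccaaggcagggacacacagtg
The Zfp352 window held 9 copies of TAATCC in a repeat spaced 20 to 21 bases apart, the highest number among the 27025 RefSeq promoters searched. Only 8 of those promoters (0.0296%) had 3 or more copies on either strand. The Zscan4c and Zscan4d windows were identical at 232 of 239 aligned bases, and each held the Dux motif 1 time. A match is a description of the letters and not of binding.

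The study's short-read tables were RPKM values (reads scaled to transcript length and to the library's mapped reads). A value is therefore a share of the embryo's polyadenylated RNA, and a change in share cannot be told apart from a change in the total amount of RNA. Between 10118229 and 15929076 reads on genes lay behind the NTC 1-cell libraries and between 5294167 and 11955609 behind the NTC 2-cell libraries, as estimated from the steps between low RPKM values. At these depths a single read on a gene of 2000 bases was worth 0.031 to 0.094 RPKM. The 1-cell embryos had 14021, 14075 and 14270 genes above 0 and the 2-cell embryos 12333, 13520 and 13192. The 1-cell embryos resembled each other more (pairwise Pearson correlations of log2 values 0.943 to 0.953) than the 2-cell embryos did (0.793 to 0.833). Between the stages the correlations were 0.711 to 0.804, and 2-cell replicate 2 was as close to the 1-cell embryos (0.791 to 0.804) as to 2-cell replicate 1 (0.795). The 8 oocyte marker genes summed to 2610 to 3180 RPKM in 1-cell and 1340 to 2170 RPKM in 2-cell embryos. The 14 cumulus cell markers summed to 0.255 to 6.39 and 1.36 to 7.92 RPKM, with 6 to 12 of the 14 at 0 in each embryo. They summed to 686 to 1600 RPKM in the donor cumulus cells (CCs) and to 519 to 1240 RPKM in MEFs, so they do not set those donor cells apart. Fibroblast markers did not exceed 2.11 RPKM in sum in any of the 6 embryos. The 4 blood markers summed to 11.8 RPKM in 2-cell replicate 2 and to at most 2.01 RPKM in the others.

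Many more genes fell than rose across the first cleavage. With limma on log2(RPKM + 1), 11915 genes with a mean of at least 0.5 RPKM were tested. A Benjamini-Hochberg adjusted p under 0.05 and a move of at least 1 on this log2 scale were reached by 1606 (13.5%). At an unadjusted p under 0.05 there were 3491 genes (29.3%). Of the 1606, 540 (4.53% of the tested genes) rose and 1066 (8.95%) fell. The 3 2-cell values lay above all 1-cell values in 12.9% of the tested genes and below them in 23%, and this held for 539 of the 540 risen and all 1066 fallen genes. The median log2 fold change of the tested genes was −0.17. After median-ratio scaling, which set that median to 0.03, 716 genes rose and 729 fell, so the balance of rises and falls depends on the scaling. Scaling on nuclear genes alone gave 623 and 939. The count depended on the 1-cell embryos too: 657, 528 and 508 genes passed without 1-cell replicate 1, 2 and 3, while 1645 to 1864 passed without a 2-cell embryo.

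**Figure D1:**
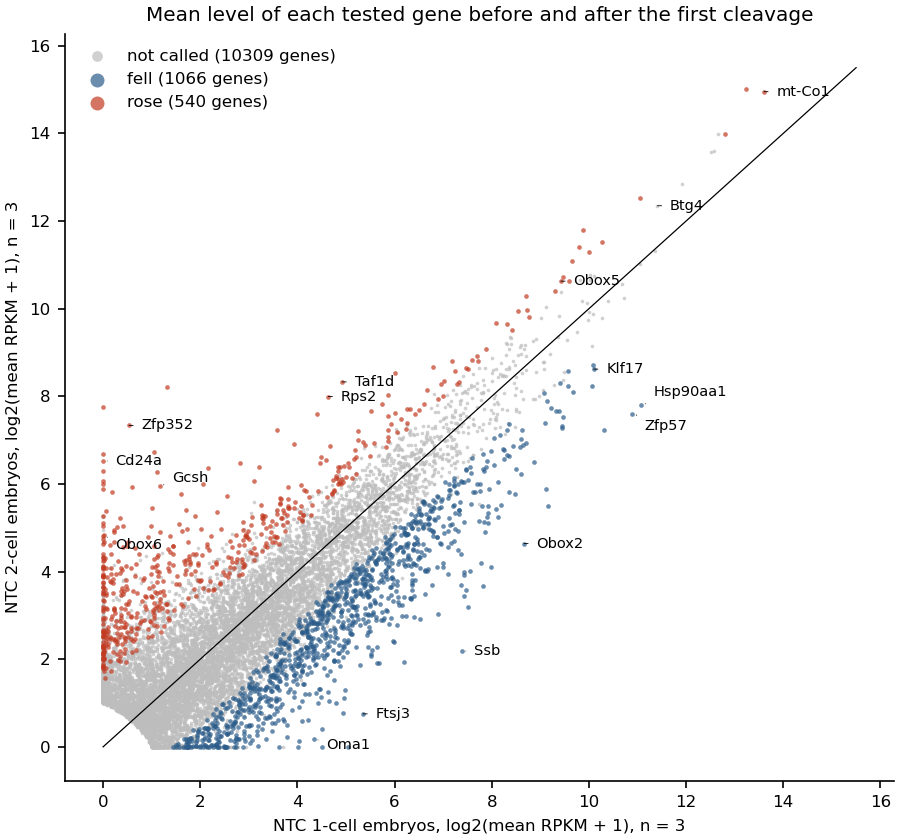
Mean level of each tested gene in NTC 1-cell embryos (x axis) and NTC 2-cell embryos (y axis), both as log2(mean RPKM + 1) with n = 3, with the line of equal levels. The 540 genes that rose (red) include many at or near 0 in 1-cell embryos, and the 1066 that fell (blue) run along the whole range of 1-cell levels.

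The call rule favours a high 1-cell level in fallen and a low one in risen genes, so their levels at these stages are a description. The fallen genes had a median of 26.3 RPKM in 1-cell and 6.14 RPKM in 2-cell embryos, and the risen genes went from 1.47 to 17.6 RPKM. Of the risen genes, 67 were at 0 in all 3 1-cell libraries, and 30 of the fallen genes were at 0 in all 3 2-cell libraries. A log2 fold change over 3 in size was found for 120 risen and 99 fallen genes. It was taken on log2(RPKM + 1), which understates the change of low genes. At later NTC stages the risen genes had medians of 22.6 RPKM at the 4-cell, 16.4 at the 8-cell, 11.2 at the morula and 8.45 at the blastula stage. The fallen genes had medians of 4.33, 3.76, 3.29 and 3.01 RPKM at these stages. That was below their 2-cell median but above the medians of all tested genes (2.45, 1.97, 1.43 and 1.82 RPKM). In the donor CCs, 66.1% of the risen and 68.8% of the fallen genes had a mean of at least 1 RPKM, against 60.0% of all tested genes.

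The 20 genes described next were chosen as the largest changes without overlap between the stages, so that separation was fixed by the choice. The gene with the largest rise was Zfp352, a MERVL-associated gene of the 2-cell embryo. Its level was 1.35, 0 and 0 RPKM in the 1-cell embryos and 205, 168 and 108 RPKM in the 2-cell embryos. The log2 fold change was 6.88 (SE 0.43, limma adjusted p = 0.000118). By the 4-cell stage its mean was 17.9 ± 23.2 RPKM (SD, n = 3), and it was at 0 in morulae, blastulae and CCs. Cd24a (chr10:43578284-43584265), which encodes a small glycosylated surface protein, was at 0 in all 3 1-cell embryos and at 141, 85.5 and 46.6 RPKM at the 2-cell stage. This was at least 3060-fold higher against a floor of 3 reads over the 1-cell group (adjusted p = 0.00016). Prps1, an X-linked enzyme that makes the ribose donor for nucleotide synthesis, had 0, 3.24 and 0 RPKM and then 220, 49.4 and 44.9 RPKM. Its log2 fold change was 5.63 (SE 0.74, adjusted p = 0.00245), and at the 4-cell stage it reached 1380 ± 590 RPKM (SD, n = 3).

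Other genes with large rises were also near 0 before cleavage. Aaed1 was at 0 in the 1-cell embryos and at 61.8, 39.0 and 12.05 RPKM at the 2-cell stage (at least 1890-fold higher, adjusted p = 0.00127). Gcsh, a subunit of the mitochondrial glycine cleavage system, rose from 2.32, 0.914 and 0.486 RPKM to 52.6, 55.1 and 75.5 RPKM (adjusted p = 0.000395) and reached 569 ± 66.5 RPKM at the 4-cell stage. Mak16, a factor of ribosome assembly, was at 0, 0 and 0.0413 RPKM and then at 18.5, 15.1 and 39.8 RPKM (adjusted p = 0.000834). Bex6 had 0, 0 and 1.51 RPKM before and 104, 20.8 and 55.9 RPKM after cleavage (adjusted p = 0.00146). Fam43a stood out for its short presence: it had 0.514, 0 and 0 RPKM at the 1-cell stage and 32.3, 38.6 and 16.4 RPKM at the 2-cell stage (adjusted p = 0.000674), then 2.21 ± 3.42 RPKM at the 4-cell and 0.00741 ± 0.0128 RPKM at the 8-cell stage (SD, n = 3).

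The largest fall was that of Ssb (chr2:69861562-69871846), which encodes the La protein that binds the ends of RNA polymerase III transcripts. It had 144, 180 and 173 RPKM in the 1-cell and 2.12, 5.31 and 3.24 RPKM in the 2-cell embryos (log2 fold change −5.25, SE 0.32, adjusted p = 0.000118). Ftsj3, an RNA methyltransferase of ribosome assembly, went from 29.6, 51.4 and 38.6 RPKM to 1.59, 0.422 and 0.0433 RPKM (adjusted p = 0.000611). Nsrp1, a splicing regulator, went from 194, 168 and 184 RPKM to 13.9, 8.28 and 2.24 RPKM (adjusted p = 0.00102). Pabpn1l, a poly(A)-binding protein of the oocyte that acts in maternal mRNA clearance, fell from 60.0, 81.1 and 75.7 RPKM to 4.65, 1.75 and 2.14 RPKM (adjusted p = 0.000421) and was at 0 at every later NTC stage. Med17, a core subunit of Mediator, fell from 135, 199 and 178 RPKM to 3.56, 12.5 and 13.3 RPKM (adjusted p = 0.000941). Mphosph8, which binds methylated histone H3 lysine 9 in the HUSH silencing complex, fell from 168, 192 and 172 RPKM to 9.56, 18.6 and 4.95 RPKM (adjusted p = 0.000703). Oma1, Zfp952, Pnpla3 and Obox2 completed the 10 largest falls, with log2 fold changes of −4.17, −4.24, −4.17 and −4.10. All 20 genes named for their size kept their call when any of the 6 embryos was left out.

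**Figure D2:**
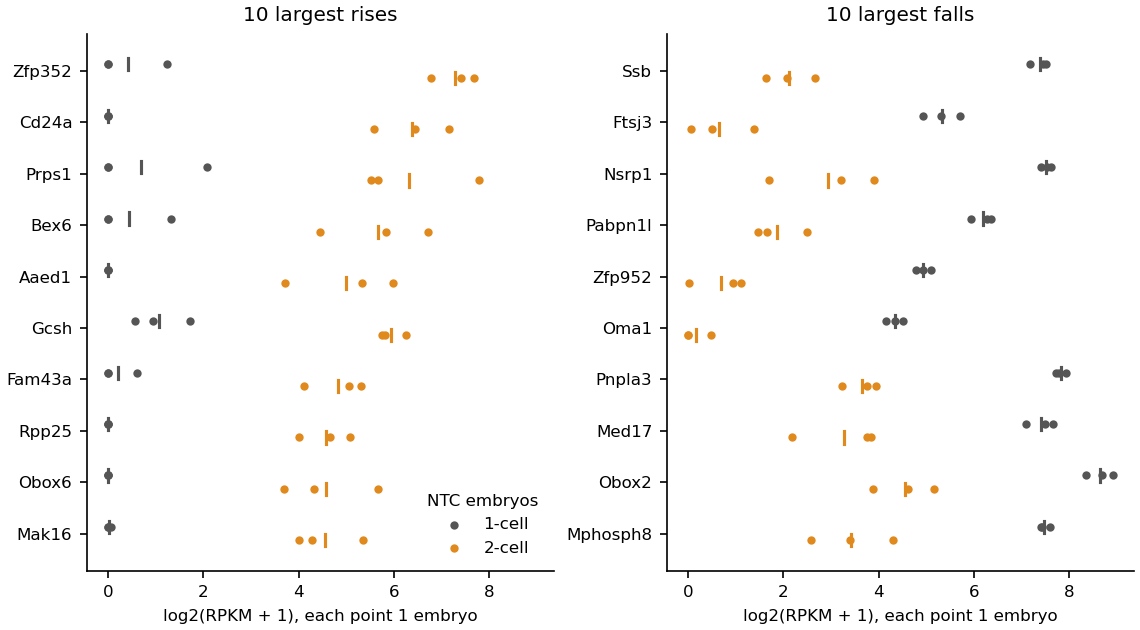
The 10 largest rises (left) and falls (right) among named genes, with each point 1 NTC embryo on a log2(RPKM + 1) axis and vertical ticks at the group means (n = 3). The 1-cell embryos are grey and the 2-cell embryos orange, and genes were chosen so that they do not overlap. Among the rises, Zfp352 spans 0 to 1.35 RPKM before and 108 to 205 RPKM after cleavage.

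Genes of the 2-cell program rose in part. Of 48 listed genes, 37 were tested, 12 rose (32.4%) and 5 fell (13.5%), against 4.53% and 8.95% of all tested genes. The list was drawn up with earlier results of these data known. The median log2 fold change was 1.23 against −0.17 over all tested genes. Without each embryo in turn, 8 to 13 rose and 4 to 7 fell, and after median-ratio scaling 13 rose and 4 fell. The summed level of the list was lower at the 2-cell stage, with 1860 to 2060 RPKM in NTC 1-cell and 1400 to 1790 RPKM in NTC 2-cell embryos. In vivo the sum was 1060 to 1400 RPKM and then 1690 to 6120 RPKM. Calcoco2, an autophagy receptor gene, was at 0 in the 1-cell embryos and at 49.8, 7.59 and 20.6 RPKM at the 2-cell stage. Tdpoz1, a member of a 2-cell family of BTB-domain genes, went from 0 in all 3 to 11.04, 12.1 and 24.2 RPKM (log2 fold change 3.98, adjusted p = 0.00117). Gm8300 went from 0, 0 and 1.27 RPKM to 24.3, 24.9 and 24 RPKM (log2 fold change 4.27, adjusted p = 0.000916). Gm5662 went from 0, 0 and 0.125 RPKM to 94.3, 15.0 and 13.4 RPKM. Both belong to a family of genes like Eif1a, whose near-identical copies share reads, so the split among them is uncertain. Such copies were counted separately, so the 12 rises are not 12 independent genes. Tmem92 and Dppa4 rose as well, by 2.68 and 2.17 on the log2 scale. The rise of Tcstv3 (adjusted p = 0.0357) was lost in 5 of the 6 fits without 1 embryo, with adjusted p = 0.147 without 1-cell replicate 2. Gm4340 and Tcstv1 also lost their calls in 5 of the 6 fits.

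The Dux and Zscan4 genes themselves were not called. Duxf3, the Dux gene of the table, had 0, 0.0698 and 0 RPKM in 1-cell and 0.0314, 0.031 and 0 RPKM in 2-cell NTC embryos and was below the filter. The in vivo 2-cell embryos had 11.4, 63.1 and 6.93 RPKM, after 0, 0 and 0.0204 RPKM at the 1-cell stage. Zscan4d, whose promoter is shown above, had 7.79, 7.06 and 1.97 RPKM and then 2.29, 0.292 and 0 RPKM in NTC embryos (log2 fold change −1.88, SE 0.63, adjusted p = 0.083). In vivo it had 1.79, 1.95 and 2.02 RPKM and then 11.1, 168 and 355 RPKM. Zscan4c had 3.35, 4.92 and 1.60 RPKM and then 15.1, 0.146 and 1.23 RPKM in NTC embryos (log2 fold change −0.23, SE 0.90, adjusted p = 0.885), so 1 of the 3 2-cell embryos was above the 1-cell range and the other two were below it. In NTM 2-cell embryos Zscan4c, Zscan4d and Duxf3 were all at 0. The Zscan4 copies share reads, and the split between Zscan4c and Zscan4d is uncertain. The difference in change between NTC and in vivo embryos was −6.82 for Zscan4d (SE 1.38, unadjusted p = 0.000228, adjusted p = 0.107 in the limma interaction fit). For Duxf3 it was −4.20 (SE 0.90, unadjusted p = 0.000382, adjusted p = 0.145) and for Zscan4c −4.82 (SE 1.62, adjusted p = 0.291). None of these 3 passed the adjusted threshold over 11730 genes. Zfp352 was at or above 108 RPKM in every NTC 2-cell embryo. Its window held no Dux motif, but only 0.174% of tested genes with a RefSeq promoter had one. A link between the motif and these levels was not tested.

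The 5 listed 2-cell genes that fell were abundant before cleavage. Arg2, an arginase, had 169, 172 and 149 RPKM in 1-cell and 19.7, 23.8 and 17.1 RPKM in 2-cell embryos (log2 fold change −2.96, adjusted p = 0.000333). Sp110, a nuclear body gene, had 102, 99.4 and 102 RPKM and then 11.3, 21.2 and 12.5 RPKM (adjusted p = 0.000941). Klf17, an early embryonic Krüppel-like factor, fell from 1189, 1038 and 1060 RPKM to 369, 378 and 431 RPKM (log2 fold change −1.48). Zfp750 fell as well (−2.46), and the fall of Dppa2 (−1.08) was lost in 4 of 6 fits, with adjusted p = 0.108 without 1-cell replicate 2.

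The Obox homeobox genes, a cluster on chromosome 7 with maternal and zygotic members, moved in opposite directions. Obox6, a zygotic member, was at 0 in every 1-cell embryo and at 50.01, 12.01 and 19.0 RPKM at the 2-cell stage (at least 473-fold higher, adjusted p = 0.00136), and it went on to 510 ± 243 RPKM at the 4-cell and 744 ± 176 RPKM at the 8-cell stage (SD, n = 3). Obox5, abundant already in 1-cell embryos, rose from 757, 675 and 626 RPKM to 1650, 1450 and 1650 RPKM (log2 fold change 1.21, SE 0.15, adjusted p = 0.00201) and was at 8.09 ± 2.09 RPKM by the 4-cell stage. Obox2 fell from 327, 478 and 409 RPKM to 34.6, 13.6 and 23.5 RPKM. Obox1 fell from 342, 402 and 429 RPKM to 144, 182 and 124 RPKM, and Obox7 from 357, 276 and 343 RPKM to 67.4, 150 and 79.0 RPKM. Near-identical Obox copies share reads, so the levels of single members are uncertain. Of 14 tested genes among the Obox genes, Nr5a2 and other early activators, 3 rose (21.4%) and 5 fell (35.7%), against 4.53% and 8.95% of all tested genes. Without each embryo 2 to 3 rose and 4 to 5 fell. Nr5a2 did not pass, with 6.12, 5.73 and 4.12 RPKM and then 3.95, 2.64 and 3.71 RPKM (adjusted p = 0.411). Tfap2c, a trophoblast and germline regulator, fell from 16.8, 22.4 and 18.1 RPKM to 3.27, 4.55 and 2.93 RPKM.

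Of 35 tested zona and oocyte genes 11 fell (31.4%, against 8.95% of all tested genes) and none rose, with a median log2 fold change of −0.72. Without each embryo 5 to 15 fell and 0 to 1 rose. Their summed level was not lower at the 2-cell stage: it was 11700 to 13000 RPKM in 1-cell and 12600 to 15600 RPKM in 2-cell embryos. Zar1l, a partner of the maternal factor Zar1, fell from 107, 110 and 109 RPKM to 5.96, 20.8 and 9.08 RPKM (log2 fold change −3.25, adjusted p = 0.00169). Oog4, an oocyte leucine-rich repeat gene, fell from 497, 432 and 473 RPKM to 85.4, 111 and 73.5 RPKM (adjusted p = 0.0005). Plat, a plasminogen activator stored as dormant mRNA in the oocyte, fell by 2.80 on the log2 scale. After median-ratio scaling 2 members of the list rose and 7 fell. Gdf9 and Zp3, a growth factor and a zona protein of the oocyte, had log2 fold changes of −0.89 (adjusted p = 0.0737) and −0.72 (adjusted p = 0.285) and did not pass. The subcortical maternal complex, a protein lattice under the membrane of the egg, had 8 falls (50%) among 16 tested genes and no rise (median −1.04, 5 to 9 falls without each embryo). Ooep fell from 408, 324 and 350 RPKM to 65.7, 97.8 and 76.1 RPKM (adjusted p = 0.000711), and Padi6 from 422, 444 and 389 RPKM to 127, 153 and 82.7 RPKM (adjusted p = 0.00259). Ooep and Padi6 were named for their small p, which favours groups that lie far apart. The fall of Nlrp5 (203, 150 and 189 RPKM to 34.6, 83.4 and 82.0 RPKM) was lost without any of the 1-cell embryos (adjusted p = 0.0969 without replicate 1).

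Among 52 tested genes of maternal mRNA clearance 2 rose (3.85%) and 7 fell (13.5%), not far from the 4.53% and 8.95% of all tested genes, and the median equalled that of all tested genes (−0.17). Zfp36l2, a protein that recruits the CCR4-NOT deadenylase to AU-rich messages, rose from 4.65, 4.82 and 5.04 RPKM to 52.6, 50.9 and 52.9 RPKM (log2 fold change 3.19, SE 0.27, adjusted p = 0.000425). Both sets of 3 values were tight, which the choice of this gene by its small p favours. Btg4, the adaptor of CCR4-NOT in the egg, had 2751, 3067 and 2349 RPKM and then 5764, 4843 and 5046 RPKM, and its log2 fold change of 0.94 (adjusted p = 0.00534) stayed under the fold threshold. It was at 45.7 ± 36.4 RPKM at the 4-cell stage. Cnot3, a scaffold subunit of CCR4-NOT, fell from 7.69, 8.04 and 8.02 RPKM to 0.297, 0.798 and 0.795 RPKM (adjusted p = 0.00557). That call was just lost without 1-cell replicate 3 (adjusted p = 0.0506). Without each embryo in turn 2 members rose and 2 to 9 fell, and after median-ratio scaling 3 rose and 4 fell.

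Most cell cycle genes did not pass the test. In the M phase list 3 of 64 tested genes rose (4.69%) and 12 fell (18.8%), against 4.53% and 8.95% of all tested genes. Without each embryo 1 to 4 rose and 8 to 14 fell, and after median-ratio scaling 9 rose and 10 fell. Cdc25c, a phosphatase that activates CDK1, rose from 0.102, 1.26 and 3.20 RPKM to 21.9, 22.1 and 21.02 RPKM (log2 fold change 3.38, adjusted p = 0.00397). Its relative Cdc25a fell from 30.3, 47.4 and 50.4 RPKM to 3.39, 4.65 and 7.46 RPKM (adjusted p = 0.00206). Ccnb1, cyclin B1, had 516, 554 and 547 RPKM and then 248, 623 and 302 RPKM, and the groups overlapped (adjusted p = 0.254). Among 56 tested DNA replication genes 1 rose (1.79%) and 12 fell (21.4%; 2 to 14 falls without each embryo), and after median-ratio scaling 2 rose and 9 fell. The gene that rose was Ccne1, cyclin E1, which went from 2.60, 1.67 and 2.57 RPKM to 34.9, 38.4 and 51.9 RPKM (log2 fold change 3.70, SE 0.33, adjusted p = 0.000529) and reached 121 ± 64.9 RPKM at the 4-cell stage. Orc1, of the origin recognition complex, fell from 62.5, 52.9 and 41.4 RPKM to 5.72, 6.61 and 9.94 RPKM (adjusted p = 0.00136). Rfc3, of the clamp loader, fell from 47.8, 38.3 and 42.7 RPKM to 2.34, 5.12 and 4.08 RPKM (adjusted p = 0.000917).

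Ribosomal protein genes that passed all rose, whereas most ribosome assembly genes that passed fell. Of 84 listed ribosomal protein genes 70 were tested, 13 rose (18.6%, against 4.53% of all tested genes) and none fell, with a median log2 fold change of 0.66. Rps2 rose from 29.8, 22.4 and 19.4 RPKM to 172, 336 and 254 RPKM (log2 fold change 3.33, SE 0.30, adjusted p = 0.000529). Rplp0 rose from 51.3, 43.6 and 39.6 RPKM to 215, 193 and 200 RPKM (adjusted p = 0.000611), and Rplp1 from 5.19, 4.19 and 8.68 RPKM to 106, 51.0 and 106 RPKM (adjusted p = 0.000941). The last pair are proteins of the ribosomal stalk. Without each embryo 7 to 17 rose and 0 to 1 fell. These genes have many processed copies in the genome, and 4 of the 21 tested pseudogenes named after ribosomal protein genes rose and none fell, so reads shared between a gene and its copies are uncertain. In the ribosome biogenesis list 25 of 91 tested genes fell (27.5%, against 8.95% of all tested genes) and 3 rose (3.3%), with a median of −0.76. Without each embryo 12 to 28 fell and 1 to 6 rose, and 19 fell and 5 rose after median-ratio scaling. Riok1, a kinase of small subunit maturation, fell from 671, 724 and 697 RPKM to 174, 147 and 138 RPKM (adjusted p = 0.00036). Ncl, nucleolin, fell from 59.2, 85.8 and 95.5 RPKM to 14.8, 20.7 and 13.6 RPKM (adjusted p = 0.00231). The RNA polymerase I factor genes went in different directions: Taf1b fell from 12.8, 15.3 and 10.3 RPKM to 0.21, 0.0829 and 0.187 RPKM, and Taf1d rose from 38.3, 14.8 and 34.7 RPKM to 452, 187 and 324 RPKM (adjusted p = 0.00172).

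Of 50 tested translation factors 6 rose and 6 fell (12% each, against 4.53% and 8.95% of all tested genes). Without each embryo 3 to 9 rose and 2 to 10 fell, and 8 rose and 4 fell after median-ratio scaling. Eif1a, which encodes an initiation factor, was at 0 in the 1-cell embryos and at 25.7, 9.53 and 12.3 RPKM at the 2-cell stage (at least 860-fold higher, adjusted p = 0.00141). Reads may be shared between Eif1a and the similar genes named above, so its own level is uncertain. Eif1ax, the X-linked relative of Eif1a, had 57.9, 69.6 and 55.2 RPKM and then 36.5, 28.7 and 29.7 RPKM, under the fold threshold (log2 fold change −0.93, adjusted p = 0.034). Eif4ebp1, which represses cap-dependent initiation, rose from 0.907, 0.704 and 4.30 RPKM to 28.9, 34.4 and 36.0 RPKM (adjusted p = 0.00205). Eif3e, a subunit of eIF3, fell from 162, 152 and 181 RPKM to 3.02, 17.4 and 15.7 RPKM.

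Most genes of the transcription and splicing machinery did not pass the test. In the list of RNA polymerase II, general factors and Mediator 5 of 87 tested genes rose (5.75%) and 7 fell (8.05%), close to the 4.53% and 8.95% of all tested genes (2 to 6 and 2 to 10 without each embryo), and after median-ratio scaling 8 rose and 3 fell. Polr2c, a core polymerase subunit, rose from 291, 272 and 255 RPKM to 758, 966 and 732 RPKM (log2 fold change 1.57). Med29 rose from 0.231, 0.931 and 0.719 RPKM to 11.9, 7.57 and 11.9 RPKM (adjusted p = 0.00399), while Med17 was among the largest falls. Of 70 tested spliceosome genes 17 fell (24.3%) and 4 rose (5.71%) (5 to 17 and 0 to 6 without each embryo), and after median-ratio scaling 8 fell and 6 rose. Crnkl1, a core splicing factor, fell from 224, 265 and 223 RPKM to 29.6, 46.2 and 35.4 RPKM (adjusted p = 0.0005).

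More genes of protein folding and turnover fell than rose, as over all tested genes (8.95% fell and 4.53% rose). Of 40 tested chaperone genes 7 fell (17.5%) and 1 rose (2.5%). Hsp90aa1, the inducible HSP90 of the cytosol, fell from 1768, 2375 and 2335 RPKM to 196, 293 and 180 RPKM (log2 fold change −3.29, SE 0.22, adjusted p = 0.00016). Of 41 tested proteasome genes 10 fell (24.4%) and 4 rose (9.76%). Psmc5, an ATPase of the regulatory particle, fell from 37.8, 39.3 and 37.1 RPKM to 1.15, 3.06 and 3.66 RPKM (adjusted p = 0.00096), and Psmd12 from 29.2, 28.3 and 36.6 RPKM to 3.26, 3.19 and 4.06 RPKM (adjusted p = 0.00101). Without each embryo, 3 to 10 chaperone and 5 to 12 proteasome genes fell, and 0 to 2 and 1 to 3 rose. After median-ratio scaling 5 chaperone and 9 proteasome genes fell, and 2 and 4 rose.

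In the list of DNA methylation and imprint maintenance 4 of 17 tested genes fell (23.5%) and none rose (3 to 4 falls without each embryo). Zfp57, the zinc finger protein that protects methylation at imprinted loci, fell from 1837, 1810 and 2055 RPKM to 170, 236 and 177 RPKM (log2 fold change −3.30, SE 0.18, adjusted p = 0.000117). Zfp445, which shares that task, fell from 13.1, 9.16 and 13.7 RPKM to 0, 1.58 and 0.0638 RPKM (adjusted p = 0.00462). Dnmt1, the maintenance DNA methyltransferase, fell from 71.3, 95.9 and 91.6 RPKM to 22.2, 10.3 and 17.5 RPKM (adjusted p = 0.0026). Of 17 tested genes of histone H3 lysine 9 methylation, a mark that resists reprogramming after nuclear transfer, 2 fell (11.8%, near the 8.95% of all tested genes) and none rose. Without each embryo 1 to 3 fell and 0 to 1 rose, and after median-ratio scaling 1 fell. Setdb1, a methyltransferase of this mark, fell from 77.4, 104 and 85.1 RPKM to 31.1, 25.4 and 15.3 RPKM (adjusted p = 0.00531). Atf7ip, its cofactor, fell too, but its call was lost without any of the 1-cell embryos (adjusted p = 0.129 without replicate 3) and under median-ratio scaling. Kdm4b, a demethylase of this mark, stayed at or below 2.70 RPKM in all 6 embryos, and Kdm4d was below the filter.

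Among 35 tested genes of histone acetylation, which include acetyltransferases and sirtuins as well as the classical deacetylases, 2 rose and 2 fell (5.71% each, against 4.53% and 8.95% of all tested genes). After median-ratio scaling 2 rose and none fell. Each of these calls was lost in 4 or 5 of the 6 fits without 1 embryo: Hdac2 (log2 fold change 1.44), Sirt6 (−2.11), Hat1 (−1.58) and Mta1 (1.29) reached adjusted p = 0.116, 0.161, 0.161 and 0.194 without 1-cell replicate 3, 3, 1 and 3. Hdac1 had 0.717, 0.0911 and 1.51 RPKM and then 5.43, 1.55 and 8.33 RPKM (adjusted p = 0.0988). Among 28 tested histone variant and histone chaperone genes 4 rose (14.3%) and 3 fell (10.7%). Without each embryo 1 to 5 rose and 1 to 4 fell, and 6 rose and 2 fell after median-ratio scaling. H2afz, histone H2A.Z, rose from 27.2, 24.6 and 12.4 RPKM to 128, 74.8 and 90.0 RPKM, and Nasp, a histone H3 and linker histone chaperone, fell from 81.4, 107 and 106 RPKM to 11.9, 14.6 and 19.2 RPKM (adjusted p = 0.000906).

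Pluripotency genes were few in these embryos. Of 24 listed genes 12 were tested, 3 rose (25%, against 4.53% of all tested genes) and none fell (1 to 3 rises without each embryo). Klf4 rose from 10.9, 8.63 and 15.3 RPKM to 67.4, 43.7 and 36.9 RPKM (log2 fold change 1.98). Utf1 was at 0 in the 1-cell embryos and at 34.3, 3.75 and 3.54 RPKM at the 2-cell stage, a call lost without any of the 1-cell embryos (adjusted p = 0.104 without replicate 3). Pou5f1, which encodes OCT4, had 11.8, 10.4 and 11.6 RPKM and then 13.9, 21.5 and 10.8 RPKM (adjusted p = 0.489), and Nanog was at 0 in all 6 embryos. Among 25 tested p53 target genes 3 rose (12%) and 2 fell (8%), against 4.53% and 8.95% of all tested genes. Sesn2, a sestrin that restrains mTORC1, rose from 0.768, 0.849 and 1.97 RPKM to 11.3, 24.6 and 23.6 RPKM (adjusted p = 0.00285) and stood at 52.4 ± 5.79 RPKM at the 4-cell stage. Cdkn1a, the p21 cell cycle inhibitor, rose by 1.90 (0.711, 1.33 and 2.28 RPKM to 14.2, 4.55 and 7.05 RPKM), and this call was lost in 5 of 6 fits without 1 embryo (adjusted p = 0.149 without 1-cell replicate 1). Bax, a mediator of apoptosis, fell from 2.84, 5.27 and 6.45 RPKM to 0, 0 and 0.652 RPKM, which was lost without 1-cell replicate 2 or 3 (adjusted p = 0.0947 without replicate 3). Without each embryo, 1 to 3 of the p53 target genes rose and 0 to 3 fell, and after median-ratio scaling 3 rose and 1 fell.

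Of 15 tested interferon response genes 4 fell (26.7%, against 8.95% of all tested genes) and none rose. Ifit1bl2 (chr19:34617049-34640743), of a family of proteins that bind foreign RNA, fell from 341, 339 and 295 RPKM to 51.2, 57.0 and 57.1 RPKM (log2 fold change −2.54, SE 0.19, adjusted p = 0.000246). All 3 values were tight at both stages, and the gene was named for its small p, which favours this. Irf1, a transcription factor of the response, fell from 19.4, 24.3 and 25.5 RPKM to 3.21, 1.16 and 5.51 RPKM, and was just above the threshold without 1-cell replicate 3 (adjusted p = 0.0524). Without each embryo 2 to 4 fell and 0 to 2 rose, and after median-ratio scaling 4 fell and 1 rose.

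Messages from the mitochondrial genome took a larger share of the 2-cell embryos. They made up 6.78%, 4.78% and 4.92% of the reads on genes in 1-cell and 19.0%, 8.77% and 11% in 2-cell embryos. All 11 tested mitochondrial genes of the list had a positive fold change and 3 passed (27.3%, while 4.53% of all tested genes rose). They belong to the same mitochondrial share of each embryo, so they are not 11 separate observations. Among the 3 was mt-Co1, subunit I of cytochrome c oxidase, with 14742, 12338 and 10223 RPKM and then 46666, 22128 and 26361 RPKM (log2 fold change 1.29). The calls depended on the embryos included: 0 to 6 of these genes passed without each embryo, and mt-Co1 was lost without 1-cell replicate 2 or 3 or 2-cell replicate 1 (adjusted p up to 0.0846). Across all lists, 221 called members were counted, and 95 of them kept their call without each embryo in turn.

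**Figure D3:**
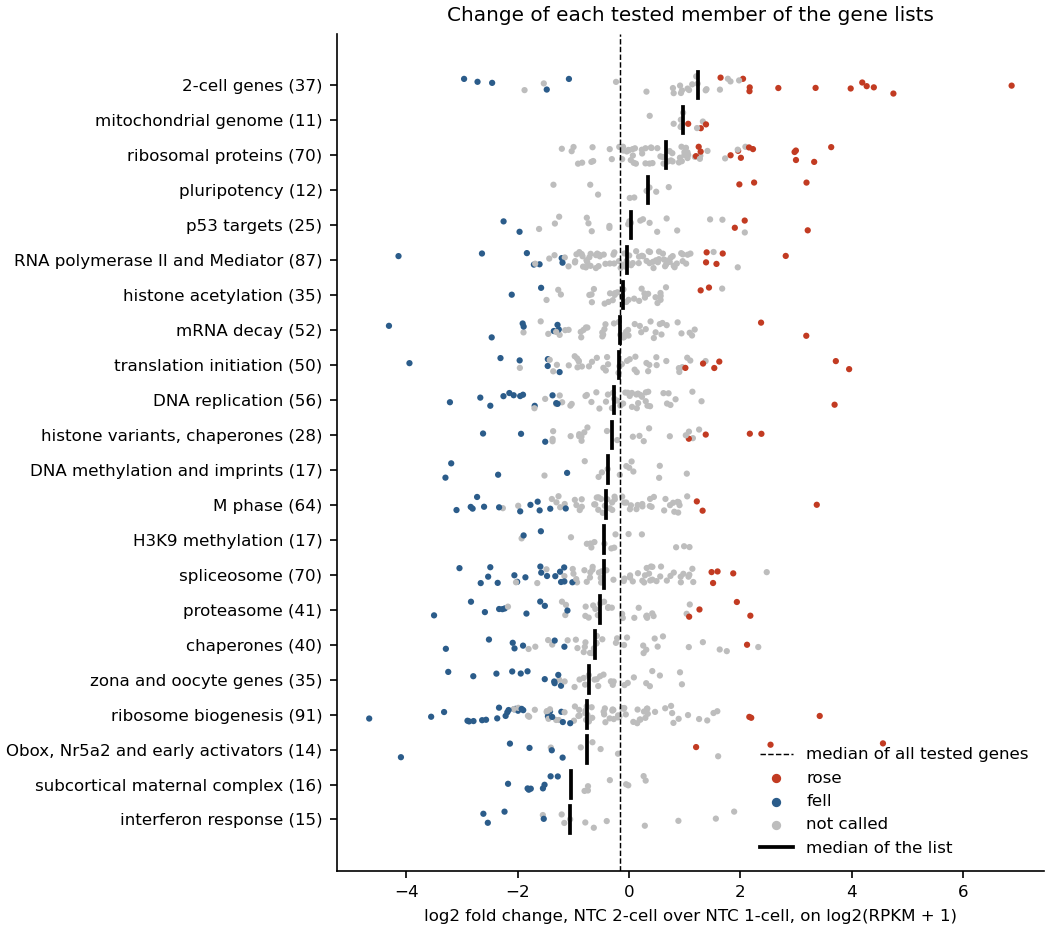
Log2 fold change of each tested member of the gene lists, NTC 2-cell over NTC 1-cell on log2(RPKM + 1), with the number tested in parentheses. Red points rose, blue points fell and grey points were not called. Thick ticks are list medians, from 1.23 for the 2-cell genes to −1.06 for the interferon response, and the dashed line is the median of all tested genes (−0.17).

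Features of the gene sequences were compared without a test. Protein-coding genes were 80.2% of the risen and 94.4% of the fallen genes, against 86.7% of all tested genes. Pseudogenes were 53 of the risen (9.81%) and 20 of the fallen genes (1.88%), against 4.40% of the tested genes, and long noncoding RNA genes 8.89% and 3.38%, against 7.40%. The risen genes were shorter, with a median exon length of 2430 bases against 4070 for the fallen and 3880 for all tested genes. The 3′ untranslated region had a median of 676 bases in the risen, 880 in the fallen and 956 in all tested genes. Cytoplasmic polyadenylation elements (TTTTAT) in these regions were about as dense in the risen as in the fallen genes, at 1.15 and 1.09 per 1000 bases, and in all tested genes (1.07). Promoters were searched for short motifs. CCAAT was found within 250 bases upstream in 42.8% of risen, 43.8% of fallen and 41.5% of tested genes with a RefSeq promoter (348, 809 and 8624 genes, both strands). GGATTA was in 7.18%, 6.67% and 6.61%, and the Dux motif in 0.287%, 0.124% and 0.174% (1 risen and 1 fallen gene). AAGGTCA, the site of Nr5a2, was in 1.44% of risen, 3.09% of fallen and 3.36% of tested promoters (5, 25 and 290 genes). CCGGAAG, the site of ETS factors, was in 13.5% of risen and 19.5% of fallen promoters, against 15.6% of tested ones. On the X chromosome 21 of 425 tested genes rose (4.94%) and 32 fell (7.53%), close to the shares over all chromosomes. Xist, the RNA of X inactivation, was at 0 in 4 of the 6 embryos and at most 0.0105 RPKM in the others.

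The same genes were then read in fertilized and in NTM embryos. The risen genes took 16%, 14.5% and 14.2% of the summed RPKM in NTC 1-cell embryos and 38.2%, 30.8% and 35.6% in NTC 2-cell embryos. Among the risen genes were 4 of the mitochondrial genome. The 13 listed mitochondrial genes summed to 29300 to 43200 RPKM in NTC 1-cell and 49700 to 123000 RPKM in NTC 2-cell embryos. The shares thus weigh a few abundant messages most and do not describe the typical risen gene. In NTM embryos, which the rule did not use, the risen genes went from 11.5%, 10.7% and 11.4% to 33.6%, 35.5% and 42.6%. In vivo they had 21.9%, 11.3% and 12.9% and then 18%, 19.5% and 23.8%. The stages overlapped only through 1-cell replicate 1, and without it the 1-cell values (11.3% and 12.9%) were below all 2-cell values. That embryo was set apart after its value was seen, so this separation is a description. Mitochondrial messages made up 13.4% of its reads on genes, against 4.71% and 6.26% in in vivo 1-cell replicates 2 and 3. The fallen genes went from 20.6%, 22.8% and 23% to 3.94%, 6.16% and 4.67% in NTC and from 17.7%, 20.3% and 18.2% to 4.61%, 5.48% and 3.27% in NTM embryos. In vivo they had 9.80%, 17.7% and 17.9% and then 13.8%, 11.9% and 5.72%, and again only 1-cell replicate 1 (9.80%) lay within the 2-cell range. NTM and NTC embryos share neither libraries nor donor cells, and in NTM embryos 2.72% of the tested genes rose and 6.68% fell by the same rule. Of the NTC risen genes tested in NTM, 84.2% of 487 had higher NTM 2-cell levels and 68 were called higher, against 41.1% and 296 of all 10041 genes. Of the fallen genes, 13% of 1038 had higher NTM 2-cell levels and 307 were called lower, against 729 of all genes. In vivo, 74.5% of 467 risen and 34.0% of 1043 fallen genes were higher at the 2-cell stage, against 49.9% of 9836.

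**Figure D4:**
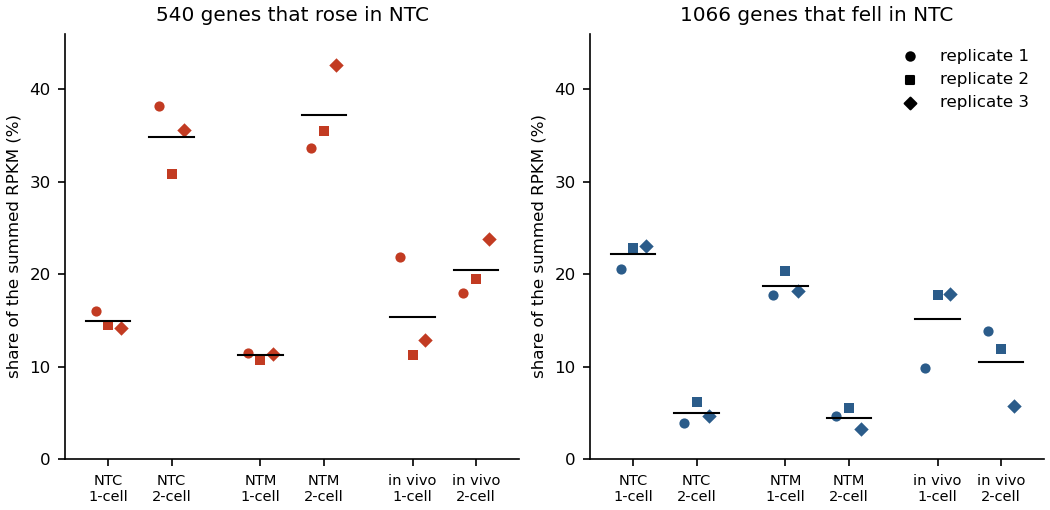
Share of each embryo's summed RPKM taken by the 540 genes that rose (left) and the 1066 that fell (right) in NTC embryos, in percent, for NTC, NTM and in vivo embryos. Each point is 1 embryo and bars are means (n = 3). The 540 genes include 4 of the mitochondrial genome. The shares of NTM embryos move as those of NTC embryos, between 10.7% and 42.6% on the left. The in vivo stages overlap in both panels only through 1-cell replicate 1 (21.9% and 9.80%), which was singled out after its values were seen.

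The in vivo libraries limit this comparison. In vivo 1-cell replicate 1 correlated at 0.797 and 0.795 with the other two, which correlated at 0.936. In vivo 2-cell replicate 3 correlated at 0.785 and 0.749 with the other two, which correlated at 0.854. Within in vivo embryos 0 of 10854 genes (0%) passed from the 1-cell to the 2-cell stage by limma, with 615 (5.67%) at an unadjusted p under 0.05. The count was also 0 without either of those embryos. The test of the difference in change called 3 of 11730 genes (0.0256%), with 1341 (11.4%) at an unadjusted p under 0.05. Without in vivo 2-cell replicate 3 it called 122 genes, 40 with a more positive and 82 with a more negative change in NTC, all 3 among them. Without in vivo 1-cell replicate 1 it called 8, again with the 3. Of the 122, 38 rose and 65 fell in NTC embryos, while over all tested genes 4.53% rose and 8.95% fell. Both tests use the NTC libraries, so some of this overlap is built in. These in vivo embryos were left out after the data were seen.

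The 3 genes were Fam43a, Rpp25 and Ifit1bl2. Fam43a had 0, 0.0234 and 0.0197 RPKM in in vivo 2-cell embryos, against 32.3, 38.6 and 16.4 RPKM in NTC embryos (difference in log2 change 4.61, SE 0.67, adjusted p = 0.032). Rpp25 (chr9:57504026-57505448), a protein subunit of RNase P and RNase MRP, had 0, 0 and 0.18 RPKM in vivo and 32.6, 15.0 and 24.3 RPKM in NTC 2-cell embryos (difference 4.50, SE 0.63, adjusted p = 0.032). It was at 0 in all NTC 1-cell embryos. Ifit1bl2 went the other way, with 33.7, 47.8 and 58.8 RPKM in in vivo 1-cell and 190, 174 and 89.1 RPKM in in vivo 2-cell embryos (difference −4.17, SE 0.51, adjusted p = 0.014). In NTM embryos it had 118, 244 and 143 RPKM and then 19.7, 75.6 and 28.5 RPKM, lower at the 2-cell stage as in NTC embryos. Each of the 3 calls was lost when the replicates of any 1 number were left out or the replicate number was a block (adjusted p 0.142 to 0.719).

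For several other genes the call hung on in vivo 2-cell replicate 3. Zfp352 had 12, 6.93 and 395 RPKM in the in vivo 2-cell embryos, Obox6 had 0.04, 0 and 59.2 RPKM, and Calcoco2 had 0, 0 and 13.8 RPKM. With all 12 libraries none of the 3 differed between NTC and in vivo embryos at the threshold. Without that embryo the differences in log2 change were 3.53, 4.54 and 4.40 and all passed. It was left out after the data were seen and was the highest in vivo 2-cell embryo for these 3 genes. The passes in the fit without it are therefore a description. Rps2 (319, 156 and 140 RPKM, then 126, 66.7 and 282 RPKM in vivo) had a difference of 4.38 and Ssb of −4.30 in that fit. Duxf3 had a difference of −4.81 and passed, and Zscan4d one of −5.83 with adjusted p = 0.0508. Pnpla3, a lipase-like gene (chr15:84167837-84187236), was unlike the others. It had 211, 219 and 243 RPKM in NTC 1-cell and 8.34, 12.5 and 14.5 RPKM in NTC 2-cell embryos, and 132, 170 and 149 RPKM and then 5.93, 25.9 and 7.12 RPKM in NTM embryos, but no more than 0.683 RPKM in any of the 6 in vivo embryos. The oocytes of the NT and in vivo groups differed in genotype, so genotype and procedure cannot be told apart here.

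**Figure D5:**
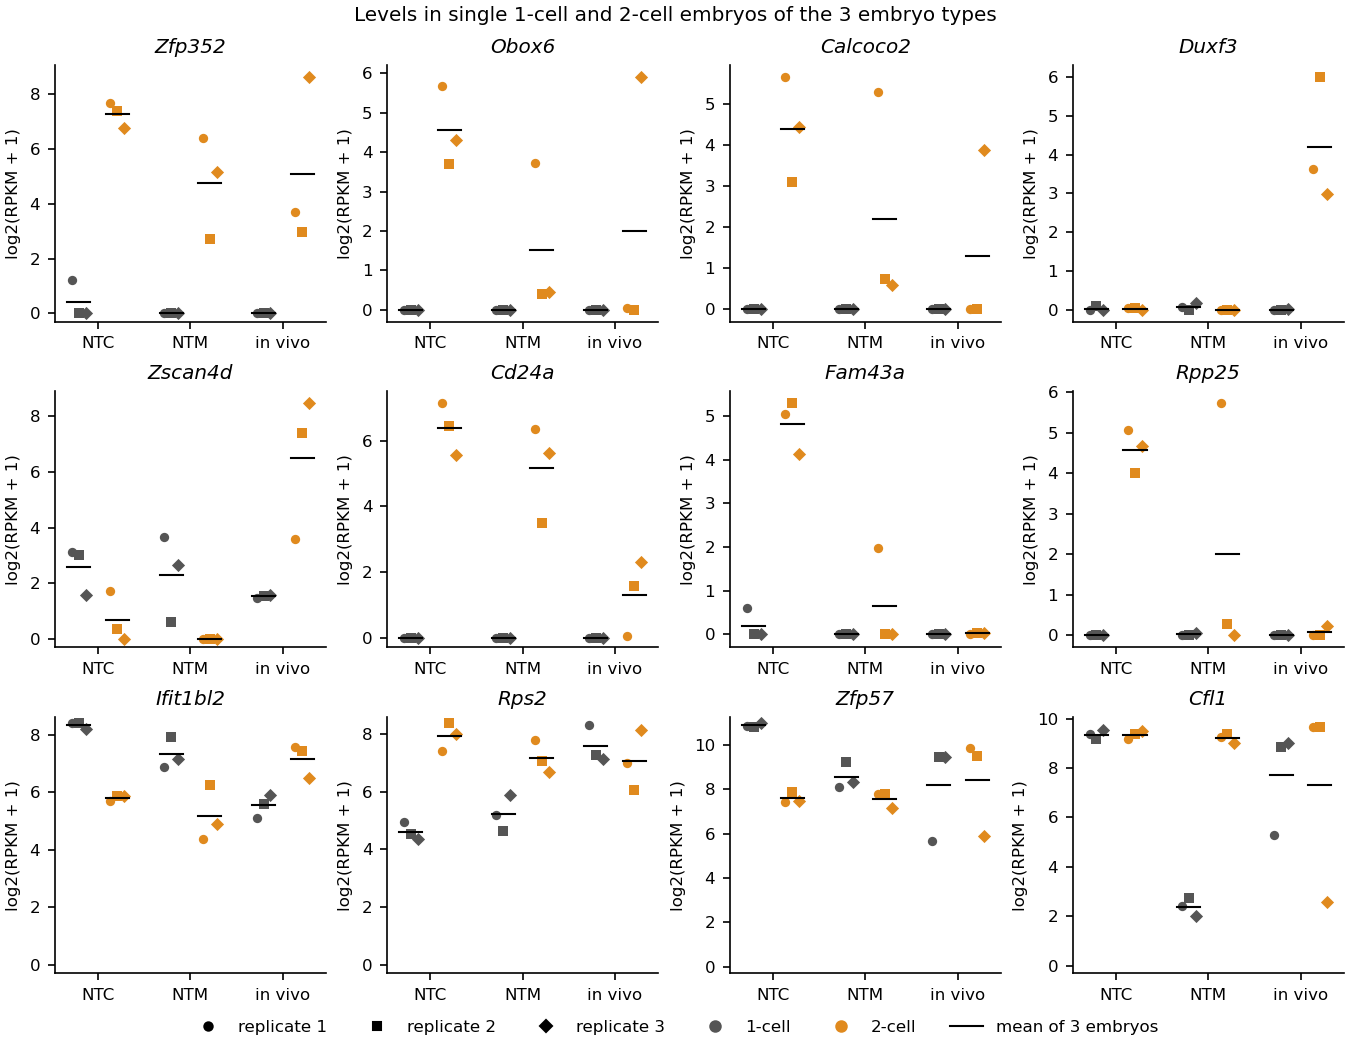
Levels of 12 genes in single 1-cell (grey) and 2-cell (orange) embryos of the NTC, NTM and in vivo groups, as log2(RPKM + 1). Marker shapes give the replicate and bars the mean (n = 3). Zfp352, Obox6 and Calcoco2 were high in all 3 NTC 2-cell embryos, and in vivo they were highest in 2-cell replicate 3. Duxf3 and Zscan4d were high at the 2-cell stage in vivo only among the 3 embryo types.

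Between NTC and NTM embryos the change differed at 233 of 11727 genes (1.99%, 1933 or 16.5% at an unadjusted p under 0.05). Of these, 88 had a more positive and 145 a more negative change in NTC than in NTM embryos. For all 145 the NTM 1-cell mean was below the NTC 1-cell mean. Of the 88, the NTM mean was above the NTC mean at the 1-cell stage for 79 and below it at the 2-cell stage for 83. Choosing genes by the sign of the difference in change favours such levels, so these counts are a description. Of the 233, 28 rose and 47 fell in NTC embryos and 158 were not called there. Over all tested genes 4.53% rose and 8.95% fell. Both tests use the NTC libraries, so some of this overlap is built in. Cfl1, cofilin, was the clearest case: NTC embryos had 657, 569 and 740 RPKM and then 573, 655 and 719 RPKM, and NTM embryos had 4.37, 5.66 and 3.01 RPKM and then 610, 671 and 516 RPKM (difference −6.85, SE 0.34, adjusted p = 2.7e-07). Klf17 had 140, 222 and 137 RPKM in NTM 1-cell and 445, 552 and 404 RPKM in NTM 2-cell embryos, opposite to its fall in NTC embryos (difference −2.98, adjusted p = 0.000254). Zfp57 had 276, 603 and 323 RPKM and then 221, 221 and 142 RPKM in NTM embryos, so its NTC 1-cell level was the highest of the NT groups and its fall was larger (difference −2.32, adjusted p = 0.0107). Obox1 had 723, 654 and 728 RPKM and then 70.2, 79.6 and 70.7 RPKM in NTM embryos, a larger fall than in NTC (difference 1.85, adjusted p = 0.00621). Gm5662, which rose in NTC embryos, had 0.0832, 0 and 0 RPKM in NTM 2-cell embryos (difference 4.71, adjusted p = 0.0146). Without the replicates of 1 number, 20 to 36 genes differed: 36, 20 and 22 without replicate 1, 2 and 3.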

How the data were processed

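Single 1-cell and 2-cell embryos had been sequenced from poly(A)-tailed, PCR-amplified cDNA without molecular identifiers, and the authors deposited 1 table of RPKM values for 60 libraries. Per the labels' processing notes, Bowtie 0.12.2 and build mm8 were used, while the study's methods describe alignment with TopHat and Bowtie2 and counting with HTSeq. Which of them made the table is not given. ERCC spike-in values were not used here. Of 27238 rows, 27013 matched a gene of GENCODE M21 (GRCm38), from which lengths, biotypes and coordinates were taken. Promoter sequences came from RefSeq (GRCm38.p6). Depth was estimated from the smallest steps between RPKM values and these lengths.

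Values were tested as log2(RPKM + 1) with limma 3.58.1 in R 4.3.3 (eBayes with trend) on the 6 NTC libraries, for genes with a mean of at least 0.5 RPKM. A fold change on this scale understates the change of low genes. Differences between embryo types were interaction terms over 12 libraries. The script was tested on simulated data. A gene was called when its adjusted p was below 0.05 and it moved by 1 or more on the log2 scale. Named genes were the 10 largest non-overlapping rises and falls with a mean of at least 10 RPKM in the higher group (no Gm or Rik names), up to 3 called genes with the smallest p per list, and a fixed set. Further called members of the lists were named as examples after their values were seen. The members and lists were chosen with earlier results of these data known. An exact permutation test of 3 against 3 embryos cannot go below p = 0.10, and none was used. Alternatives were another pseudocount, no filter, median-ratio scaling, nuclear genes only, the replicate block, 1 fit over all 20 groups and leaving out embryos. Leaving out 2 in vivo embryos was added after seeing the data.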

Additional observations from a re-analysis of the deposited data

Results flagged for a closer look

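The change from 1-cell to 2-cell differed between NTC and in vivo embryos at 3 genes by the limma interaction term. These were Fam43a (difference in log2 change 4.609), Rpp25 (4.496) and Ifit1bl2 (−4.172). Between NTC and NTM embryos it differed at 233 genes. Of the genes named by the rule, 4 were among them: Cnot3 (−3.717), Fam43a (3.968), Hat1 (3.479) and Zfp57 (−2.32). Cnot3 had 0.674, 0.0949 and 0.331 RPKM in NTM 1-cell and 0.58, 2.89 and 4.33 RPKM in NTM 2-cell embryos, where the stages overlapped and its change was not called (limma adjusted p = 0.258), and it fell in NTC embryos. Fam43a had 2.95, 0 and 0 RPKM in NTM 2-cell embryos. Hat1 had 45.4, 27.7 and 47.0 RPKM in NTM 1-cell and 0.0354, 0.428 and 0.168 RPKM in NTM 2-cell embryos, a larger fall than in NTC embryos. Groups of 3 embryos were too small for a test of single outlying values.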

How the results depend on the processing

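No alternative turned the direction of any of the 81 called named genes. Of the named genes that were not called, Zscan4c changed sign (−0.23) without 2-cell replicate 2 (0.56) or 3 (0.08), without 1-cell replicate 2 (0.04) and under median-ratio scaling (0.01), and Dppa3 (0.05) without 2-cell replicate 3 (−0.17). Of the 81, 65 kept their call without each embryo in turn, 13 lost it in 1 fit over all groups, 12 without the filter, 4 under median-ratio scaling and none under the replicate block. The 1606 calls became 931 (313 risen, 618 fallen of 19078 tested) without the filter and 508 to 1864 when 1 embryo was left out, with 193 to 655 risen and 315 to 1226 fallen. The share of calls that rose, 33.6%, became 49.55% under median-ratio scaling, 39.88% with nuclear genes only, 37.55% in 1 fit over all groups (1462 calls, 917 of them shared with the 1606), and 33.56% to 37.99% when 1 embryo was left out. The 3 genes that differed from in vivo became 1 with a pseudocount of 0.1, 0 under the replicate block, 0 to 0 without the replicates of 1 number, 8 without in vivo 1-cell replicate 1 and 122 without in vivo 2-cell replicate 3. The 233 that differed from NTM became 131 under the replicate block and 20 to 36 without the replicates of 1 number. Fits without 1 embryo have fewer samples, and for the other changes the cause was not tested. Same-numbered 1-cell and 2-cell embryos did not deviate together (correlations 0.0264, 0.0154 and −0.00582), and the replicate block gave 1428 calls. Not every embryo correlated best with its own number. The estimated depth of 2-cell replicate 3, 5294167 reads, limits low genes.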
